A study of Mus musculus with 2 samples.

Results

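Monocyte chemokines and macrophage growth factors were followed in interscapular brown adipose tissue (BAT) as 9 genes, chosen by symbol out of the 32285 genes in the count tables. They were the growth factors Csf1 and Il34, their receptor Csf1r, the chemokines Ccl2, Ccl8, Ccl6 and Ccl9, and the chemokine receptors Ccr2 and Cx3cr1. RNA of all 9 genes was detected in both genotypes.

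Macrophages of adipose tissue are kept by signals from the cells around them and are joined by monocytes that enter from blood. CSF1 and IL-34 are ligands of the receptor tyrosine kinase CSF1R, which monocytes and macrophages need to survive and divide. CCL2 draws monocytes out of blood through its receptor CCR2, and CX3CR1, the receptor of fractalkine, marks patrolling monocytes and some tissue macrophages. Ccl6, Ccl8 and Ccl9 encode further C-C chemokines made largely by myeloid cells.

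Single-nucleus RNA-seq (snRNA-seq) compared BAT of 8-week-old male WT mice, which carried SRSF1 flox/flox without Cre, with that of KO littermates, which carried Adipoq-Cre and SRSF1 flox/flox. Both groups therefore had floxed Srsf1, and the Cre of the KO was driven by the adiponectin promoter, which is active in mature adipocytes, so that the splicing factor SRSF1 was deleted there and not by design in vascular, stromal or immune cells. Each genotype was sequenced as 1 library, and how many animals went into it is not given in the sources used here. No test between WT and KO could be made, every difference between genotypes is also a difference between 2 libraries, and the 95% intervals given here cover counting error only.

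Each RNA molecule was counted by a unique molecular identifier (UMI). The WT library held 93102814 UMIs in 12846 barcodes and the KO library 80090208 UMIs in 11495 barcodes, of which 12771 and 11378 were kept, and 52 barcode sequences occurred in both libraries. Nuclei were called adipocyte-like, adipose stem and progenitor cell-like (ASPC), mural-like, endothelial-like, Schwann-like or immune-like from summed markers, and are named below without "like". In adipocyte, ASPC, mural and endothelial nuclei their own markers had the highest sum of the 19 marker lists in both libraries. The same markers made the calls, and macrophage markers entered the immune call. These sums therefore describe the classes and are no independent check of them. Adipocyte markers summed to 9724 CPM (UMIs per 1000000 UMIs of the class) in WT and 7986 CPM in KO adipocyte nuclei, and the 10 macrophage markers to 11050 and 11358 CPM in resident macrophage nuclei. In WT mural nuclei the margin was small, with mural markers at 4908 CPM and adipocyte markers at 4669 CPM. Srsf1, the deleted gene, stood at 183 CPM in WT and 61.9 CPM in KO adipocyte nuclei, and its level was also lower in KO in the other main classes, for example at 142 and 86.2 CPM in endothelial nuclei.

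Senders and receivers of these signals were present in unequal numbers. Adipocyte nuclei numbered 3981 in WT and 2830 in KO, ASPC nuclei 434 and 1905, mural nuclei 433 and 224, and endothelial nuclei 3007 and 1236. Immune nuclei numbered 863 in WT (6.76% of nuclei) and 3640 in KO (32.0%). Among them 288 and 1218 were resident macrophages, 30 and 645 lipid-associated macrophages, 31 and 18 monocytes, 16 and 131 dendritic cells and 24 and 84 T and NK cells, while 462 and 1515 immune nuclei had no finer call. Another 3845 WT and 1457 KO nuclei stayed unassigned. In a separate clustering, the adipocyte nuclei of the genotypes sat apart, 65.4% of WT in cluster 4 and 70.1% of KO in cluster 22, and immune nuclei were led by cluster 6 in WT and cluster 7 in KO.

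Csf1, the main growth factor of macrophages, had the largest difference of the 9 genes in adipocyte nuclei. It counted 338 UMIs (9.26 CPM, 95% Poisson interval 8.30 to 10.3) in WT and 2625 UMIs (103 CPM, 99.0 to 106.9) in KO. The KO level was 11.1-fold that of WT, a log2 ratio of 3.47 (3.31 to 3.64), and 96.6% of the 17714 genes with at least 20 UMIs in this class had a smaller ratio. The WT level of adipocyte nuclei lay below that of WT endothelial nuclei, whereas the KO level lay above it.

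Csf1 stood as high in ASPC nuclei, with 228 UMIs (83.4 CPM, 72.9 to 94.9) in WT and 1230 UMIs (104 CPM, 98.5 to 110) in KO, a log2 ratio of 0.32 (0.12 to 0.53). In WT the order of levels was thus ASPC, then endothelial at 22.5 CPM (19.6 to 25.7), then mural at 14.9 CPM (10.4 to 20.7), whose interval met the endothelial one, and last adipocyte and immune nuclei at 9.26 and 7.00 CPM. In KO, ASPC and adipocyte nuclei were level at the top, followed by mural at 39.1 CPM (27.2 to 54.3) and endothelial nuclei at 33.7 CPM (27.8 to 40.4), which did not differ beyond their intervals, and immune nuclei were lowest at 17.5 CPM. Adipocyte nuclei thus moved from the low end of the order in WT to its top in KO.

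The Csf1 difference was seen in called KO adipocyte nuclei of several clusters, of which cluster 22 was mostly adipocyte (91.0% of its nuclei). Clusters 21 and 13 were mostly called endothelial (84.9%) and ASPC (72.4%), and in cluster 8 adipocyte led with 34.5%. Within the adipocyte class, cluster 4 of WT stood at 7.38 CPM (6.27 to 8.64), and KO adipocyte nuclei stood at 117 CPM (112 to 123) in cluster 22, at 87.0 CPM (80.6 to 93.8) in cluster 8 and at 139 CPM (105 to 180) in cluster 21. Cluster 13 held adipocyte nuclei of both genotypes, with 30.1 CPM (20.4 to 42.7) in WT and 93.9 CPM (78.6 to 111) in KO. ASPC nuclei of the same cluster stood at 79.3 CPM in WT and 86.5 CPM in KO. The part of RNA from other classes in these adipocyte nuclei was not tested. Of the KO adipocyte nuclei, 324 of 2830 (11.4%) had 3 or more Csf1 UMIs, up to 26 in a nucleus, against 9 of 3981 (0.226%) in WT.

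Depth differed between classes and libraries, so nuclei were also thinned to 1000 UMIs each, which left out 254 WT and 170 KO adipocyte nuclei. The share of adipocyte nuclei with a Csf1 UMI was then 0.912% (95% exact binomial interval 0.633 to 1.27) in WT and 8.57% (7.53 to 9.70) in KO, where 7.06% and 35.5% had a UMI before thinning at median depths of 6978 and 6476 UMIs. In resident macrophage nuclei, with median depths of 4820 and 4122 UMIs, 0.364% (0.00921 to 2.01) and 1.79% (1.11 to 2.73) had a Csf1 UMI after thinning. The WT adipocyte share lay within the interval of this class and is not read as expression of Csf1, and the KO share lay above it. The WT interval of the macrophages is wide, so absence of Csf1 from WT adipocyte nuclei is not shown either.

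The Csf1 gene lies on chromosome 3 at 107741048 to 107760469 on the minus strand (GRCm38, GENCODE). The bases before its start (RefSeq, GRCm38.p6, chr3:107760470-107760719, minus strand) are shown because Csf1 differed most in adipocyte nuclei. Capitals mark the only match, on either strand, to the NF-kB motif searched (GGGA, then any base, then TTTCC), at -154 to -145 from the start, and 0.411% of 32851 mouse promoters hold this motif.
Csf1: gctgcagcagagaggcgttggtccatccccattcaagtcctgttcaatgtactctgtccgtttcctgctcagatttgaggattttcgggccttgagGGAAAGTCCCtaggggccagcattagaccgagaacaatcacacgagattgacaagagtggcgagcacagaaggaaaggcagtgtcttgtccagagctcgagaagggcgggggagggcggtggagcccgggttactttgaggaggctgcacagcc

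Il34, the other ligand of CSF1R, was a gene of mural nuclei, the pericytes and smooth muscle cells of vessels. Mural nuclei held 554 UMIs (235 CPM, 216 to 256) in WT and 598 UMIs (667 CPM, 615 to 723) in KO, a log2 ratio of 1.503 (1.33 to 1.67). Their level exceeded that of every other class in both genotypes. Nearly all called mural nuclei sat in cluster 14, and within it the values were 243 CPM (223 to 264) and 670.5 CPM (618 to 726).

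Il34 was also higher in KO among ASPC nuclei, with 77 UMIs (28.2 CPM, 22.2 to 35.2) in WT and 949 UMIs (80.4 CPM, 75.4 to 85.7) in KO, a log2 ratio of 1.51 (1.18 to 1.87). ASPC nuclei of cluster 13, which was led by C7, Pde11a and Lama2, stood at 26.9 CPM (20.5 to 34.7) in WT and 99.7 CPM (92.1 to 108) in KO. The 182 KO ASPC nuclei of cluster 8, a cluster of mixed calls with 19 WT nuclei in all, held 223 UMIs (90.2 CPM, 78.7 to 103). ASPC nuclei of cluster 16, which was led by Opcml, Sema3c and Dpp4, a marker of early progenitors, had 19.0 CPM (6.98 to 41.4) in WT and 14.3 CPM (10.0 to 19.8) in KO, which overlapped. Csf1 showed the reverse order within ASPC nuclei, at 86.5 CPM in KO nuclei of cluster 13 and 161 CPM in those of cluster 16, with 79.3 and 136 CPM in WT.

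Schwann nuclei held 38 Il34 UMIs (42.9 CPM) in WT and 21 UMIs (89.4 CPM) in KO, a log2 ratio of 1.06 (0.22 to 1.87) from 133 and 38 nuclei, and in the WT ones adipocyte markers (5100 CPM) exceeded Schwann markers (3785 CPM). In adipocyte nuclei Il34 stood at 5.51 CPM in WT and 13.8 CPM in KO, a log2 ratio of 1.33 (1.07 to 1.59). After thinning, however, the share of KO adipocyte nuclei with an Il34 UMI was 0.752% (0.460 to 1.16) beside 0.892% (0.429 to 1.63) in KO endothelial nuclei, and did not exceed it. KO adipocyte nuclei were uneven, with 45.5 CPM (35.1 to 58.1) in cluster 13 and 5.98 CPM (4.78 to 7.40) in cluster 22. In mural nuclei 23.2% (19.2 to 27.5) of WT and 42.5% (35.8 to 49.4) of KO nuclei had an Il34 UMI after thinning.

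**Figure D1:**
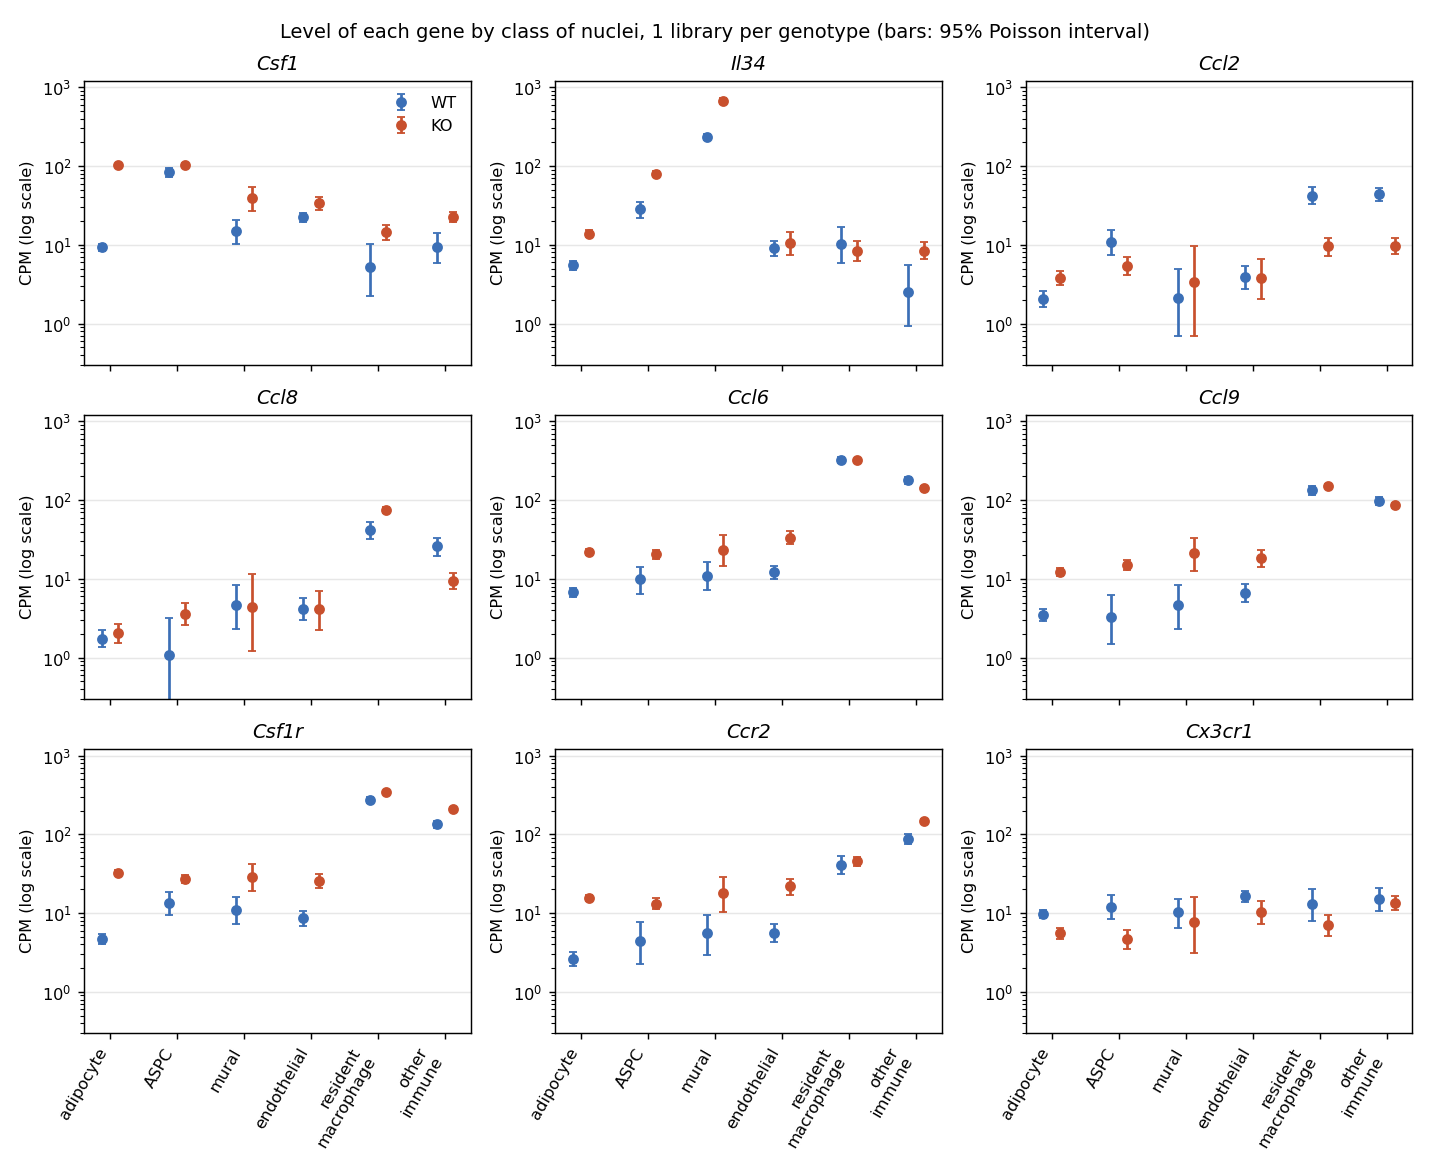
Level of each of the 9 genes (CPM, log axis) in 6 classes of nuclei, with WT in blue and KO in red, and bars for the 95% Poisson interval of each library's summed count. Csf1 in adipocyte nuclei stands at 9.26 CPM in WT and 103 CPM in KO, Il34 is highest in mural nuclei, and Ccl2 in resident macrophage nuclei is lower in KO at 9.57 CPM than in WT at 42.2 CPM.

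Csf1r, the receptor of both growth factors, was the receiving end in immune nuclei. Its level there was 806 UMIs (182 CPM, 170 to 195) in WT and 4708 UMIs (237 CPM, 230 to 244) in KO, a log2 ratio of 0.38 (0.27 to 0.49). Resident macrophage nuclei stood at 273 CPM (248 to 301) and 343 CPM (329 to 359), a log2 ratio of 0.33 (0.18 to 0.48). Lipid-associated macrophages, a state named for lysosomal and lipid-handling genes, held 24 UMIs in 30 WT nuclei (127 CPM, 81.5 to 189) and 758 UMIs in 645 KO nuclei (174 CPM, 162 to 187).

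Taken as whole classes, resident macrophages thus had a higher level of the receptor than lipid-associated ones in KO. In WT the lipid-associated nuclei were too few to rank against monocytes at 250 CPM (173 to 350) or dendritic nuclei at 119 CPM (51.2 to 234). Within cluster 7, which held resident macrophages of both genotypes, Csf1r stood at 358 CPM (308 to 415) in WT and 382 CPM (364 to 400) in KO, which overlapped. The share of resident macrophage nuclei with a Csf1r UMI after thinning was 26.5% (21.4 to 32.2) in WT and 31.8% (29.2 to 34.6) in KO, and these overlapped too. The level of Csf1r in resident macrophages therefore differed by less than 2-fold between the libraries, in the whole class as in cluster 7. KO lipid-associated nuclei of cluster 7 stood at 340 CPM (288 to 398), which overlapped the KO resident nuclei there. Those of cluster 23 stood at 150 CPM (137 to 165), and KO resident nuclei of cluster 10 at 226 CPM (186 to 272). The order of the 2 classes in KO thus went in part with the cluster.

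Outside immune nuclei, Csf1r was low and higher in KO. Adipocyte nuclei counted 172 UMIs (4.71 CPM) in WT and 829 UMIs (32.5 CPM) in KO, a log2 ratio of 2.79 (2.55 to 3.03). The macrophage marker Adgre1, which encodes F4/80, moved with it, at 11.8 CPM in WT and 109 CPM in KO adipocyte nuclei and at 18.3 and 76.8 CPM in endothelial nuclei. After thinning, 2.44% (1.89 to 3.104) of KO adipocyte, 2.28% (1.64 to 3.08) of KO ASPC and 2.23% (1.45 to 3.28) of KO endothelial nuclei had a Csf1r UMI. The shares in adipocyte and ASPC nuclei thus did not exceed that of endothelial nuclei beyond their intervals, and they are not read as expression. Of the 829 UMIs in KO adipocyte nuclei, 641 lay in the 409 nuclei of cluster 8 (82.1 CPM), while the 1983 nuclei of cluster 22 stood at 6.62 CPM.

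All 10 macrophage markers were above 0 in adipocyte nuclei of both libraries and summed to 161 CPM in WT and 604 CPM in KO, and the 5 lipid-associated macrophage markers to 7.67 and 384 CPM. The part of macrophage RNA in the values of Csf1r, Ccr2, Ccl6 and Ccl9 in non-immune nuclei was not tested. Without the nuclei of 4 clusters in which under 50% of nuclei took the same class, an alternative chosen after seeing the data, the log2 ratio in adipocyte nuclei was 3.58 for Csf1 and 1.00 for Csf1r, just under 2-fold. It was 1.40 for Ccr2, 0.61 for Ccl6 and 0.85 for Ccl9.

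Ccl2, the ligand of CCR2, was the only one of the 9 genes at least 2-fold lower in KO immune nuclei as a whole. It counted 182 UMIs in 863 WT nuclei (41.1 CPM, 35.4 to 47.5) and 183 UMIs in 3640 KO nuclei (9.22 CPM, 7.93 to 10.7), a log2 ratio of -2.16 (-2.46 to -1.85). The same side was seen in resident macrophages at 42.2 CPM (32.6 to 53.8) and 9.57 CPM (7.27 to 12.4), and in immune nuclei with no finer call at 44.0 and 9.70 CPM. The level in WT immune nuclei was above that of WT adipocyte nuclei at 2.06 CPM and endothelial nuclei at 3.87 CPM.

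Part of this difference went with the cluster. Immune nuclei of cluster 6, led by Cd163, stood at 54.3 CPM (45.1 to 64.9) in WT and 21.7 CPM (11.2 to 37.8) in KO for Ccl2. Those of cluster 7, led by F13a1, stood at 12.4 CPM (4.97 to 25.5) and 7.78 CPM (5.87 to 10.1). Intervals of the genotypes did not meet in cluster 6 and overlapped in cluster 7, and 355 WT but 59 KO immune nuclei lay in the first and 94 WT but 1686 KO in the second.

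In ASPC nuclei Ccl2 stood at 10.97 CPM (7.40 to 15.7, 30 UMIs) in WT and 5.42 CPM (4.18 to 6.92) in KO, a log2 ratio of -1.02 (-1.66 to -0.34). This value turned to 0.29 when the top 10% of nuclei by UMIs were left out. Over all nuclei, Ccl2 had 453 UMIs in WT and 418 in KO, the same 5.71 CPM. Summed over the tissue it therefore showed no difference, although the immune class that carried 40.2% of its UMIs in WT and 43.8% in KO did.

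Ccl8 went apart from Ccl2 in resident macrophages. It counted 64 UMIs (41.5 CPM, 32.0 to 53.0) in WT and 452 UMIs (74.6 CPM, 67.9 to 81.8) in KO resident macrophage nuclei, a log2 ratio of 0.84 (0.46 to 1.25), under 2-fold. Immune nuclei with no finer call had 25.8 CPM (19.8 to 33.2) in WT and 9.45 CPM (7.43 to 11.8) in KO, a log2 ratio of -1.45 (-1.96 to -0.94). In KO, Ccl8 thus lay mainly in the resident class, which held 58.2% of its UMIs there and 18.4% in WT.

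Lipid-associated macrophages of KO had little Ccl8, with 20 UMIs in 645 nuclei (4.58 CPM, 2.80 to 7.08), and 7 UMIs were found in the 30 WT nuclei of this class. Within cluster 7, resident macrophage nuclei of WT and KO overlapped at 70.9 CPM (49.4 to 98.6) and 88.4 CPM (79.9 to 97.5). WT resident nuclei of cluster 6 had 28.9 CPM (18.3 to 43.4), and 55 KO resident nuclei of cluster 9, a cluster of shallow nuclei led by haemoglobin genes, had 494 CPM (333 to 706). Over all immune nuclei of cluster 6, Ccl8 stood at 34.7 CPM (27.5 to 43.4) in WT and 14.4 CPM (6.24 to 28.5) in KO, with intervals that overlapped at their ends. Over all immune nuclei of cluster 7 it stood at 65.4 CPM (46.0 to 90.1) in WT and 57.6 CPM (52.2 to 63.5) in KO, which overlapped.

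Ccl6 and Ccl9 differed little between the libraries in resident macrophages as a whole. Ccl6 stood at 322 CPM (294 to 352) in WT and 321 CPM (307 to 336) in KO resident macrophages, a log2 ratio of -0.00 (-0.15 to 0.14). Ccl9 stood at 134 CPM (116 to 153) and 153 CPM (143 to 163), a log2 ratio of 0.19 (-0.03 to 0.41). Intervals of the genotypes overlapped for both genes. Within cluster 7 they overlapped as well for Ccl6, at 320 CPM (272 to 374) and 353 CPM (336 to 371). KO resident nuclei of other clusters ran from 123 CPM in cluster 10 to 1499 CPM in cluster 9 for Ccl6, and from 90.9 to 824 CPM for Ccl9.

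In lipid-associated macrophages Ccl6 was at 217 CPM (156 to 295, 41 UMIs) in WT and 127 CPM (117 to 138) in KO, a log2 ratio of -0.77 (-1.23 to -0.28), and Ccl9 at 100.7 CPM (60.6 to 157, 19 UMIs) and 100 CPM (91.0 to 110). In KO, Ccl6 was thus lower in lipid-associated than in resident macrophages. In the immune class as a whole the log2 ratios were -0.25 (-0.35 to -0.14) for Ccl6 and -0.02 (-0.16 to 0.13) for Ccl9. In adipocyte nuclei they were 1.71 (1.49 to 1.93) and 1.78 (1.48 to 2.09) at low levels of 6.77 and 22.2 CPM for Ccl6 and 3.54 and 12.2 CPM for Ccl9.

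The chemokine genes lie in the same stretch of chromosome 11. Ccl6 (83587882 to 83593087) and Ccl9 (83572919 to 83578636) are neighbours on the minus strand with starts 14.5 kb apart, and Ccl2 (82035571 to 82037453) and Ccl8 (82115185 to 82116799) lie on the plus strand with starts 79.6 kb apart. The bases before the starts of Ccl8, Ccl6 and Ccl9 (RefSeq, GRCm38.p6) are shown as those of the chemokines found mainly in macrophages. They are chr11:82114935-82115184 on the plus strand, and chr11:83593088-83593337 and chr11:83578637-83578886 on the minus strand. Capitals mark matches to the PU.1 motif GAGGAAG, the AP-1 motif TGANTCA or the NF-kB motif on either strand, and to the TATA box motif TATAAA on the strand of the gene. PU.1 is a main transcription factor of myeloid cells.
Ccl8: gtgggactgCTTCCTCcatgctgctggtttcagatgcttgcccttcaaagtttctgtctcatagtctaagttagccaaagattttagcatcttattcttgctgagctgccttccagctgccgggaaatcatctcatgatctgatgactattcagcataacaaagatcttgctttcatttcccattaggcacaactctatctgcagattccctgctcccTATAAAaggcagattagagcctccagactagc
Ccl6: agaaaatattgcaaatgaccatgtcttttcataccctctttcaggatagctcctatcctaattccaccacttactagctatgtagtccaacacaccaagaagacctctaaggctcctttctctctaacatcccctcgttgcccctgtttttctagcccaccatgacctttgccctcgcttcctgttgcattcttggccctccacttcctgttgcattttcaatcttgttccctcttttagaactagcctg
Ccl9: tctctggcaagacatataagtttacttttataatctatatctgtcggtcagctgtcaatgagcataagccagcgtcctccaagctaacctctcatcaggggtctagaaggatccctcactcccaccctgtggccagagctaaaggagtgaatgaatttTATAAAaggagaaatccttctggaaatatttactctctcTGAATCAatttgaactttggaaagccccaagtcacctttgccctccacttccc

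Ccl8 held a PU.1 match at -241 to -235 and a TATA match at -32 to -27, and Ccl9 an AP-1 match at -53 to -47 and a TATA match at -92 to -87, all counted from the start. None of the 4 motifs was found for Ccl6, which says only that these letters are not in this window. PU.1 letters occur in 13.6%, AP-1 letters in 7.81% and TATA letters in 8.32% of all promoters. The window searched ran to 50 bases after the start, and RefSeq promoters were at hand for 6 of the 9 genes.

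Ccr2, the receptor by which monocytes follow CCL2, was highest in nuclei called monocyte or dendritic in WT and in dendritic nuclei in KO. Monocyte nuclei, 31 in WT and 18 in KO, held 58 UMIs (427 CPM, 324 to 552) and 28 UMIs (179 CPM, 119 to 258), a log2 ratio of -1.26 (-1.96 to -0.58). Dendritic nuclei held 25 UMIs (371 CPM, 240 to 548) and 205 UMIs (281 CPM, 244 to 322). T and NK nuclei stood at 167 CPM (83.4 to 299) and 201 CPM (161 to 248), and in KO the intervals of monocyte, dendritic and T and NK nuclei overlapped one another. In the nuclei called monocyte, macrophage markers (2989 CPM in WT and 2794 CPM in KO) exceeded monocyte markers (1509 and 912 CPM), so the call rests on the scaled score and not on the larger sum.

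Macrophages were lower in Ccr2, at 40.9 CPM (31.4 to 52.3) in WT and 45.2 CPM (40.0 to 50.9) in KO resident nuclei, a log2 ratio of 0.15 (-0.25 to 0.56). KO lipid-associated macrophages stood at 49.96 CPM (43.5 to 57.0), close to resident ones. Immune nuclei with no finer call had 87.3 CPM (75.7 to 100) in WT and 148 CPM (139 to 156) in KO, a log2 ratio of 0.76 (0.54 to 0.98), and held 37.9% of the Ccr2 UMIs of KO. Over all immune nuclei the log2 ratio was 0.25 (0.09 to 0.41).

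Cx3cr1 was even and low across classes. Outside monocytes, WT levels of the classes with at least 50 nuclei ran from 9.03 CPM in Schwann to 17.8 CPM in immune nuclei, and adipocyte nuclei held the largest share of its UMIs in WT (38.1%). Monocytes stood above this with 16 UMIs (118 CPM, 67.3 to 191) in WT and 6 UMIs (38.3 CPM, 14.0 to 83.3) in KO. The Cx3cr1 gene model spans 168264 bases of chromosome 9 and overlaps Gorasp1, Csrnp1 and Xirp1 on the same strand, so that its UMIs outside monocytes are uncertain in origin.

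Cx3cr1 was lower in KO over all nuclei, at 932 UMIs (11.7 CPM) in WT and 527 UMIs (7.20 CPM) in KO, a log2 ratio of -0.71 (-0.86 to -0.55). It was lower by 2-fold or more in ASPC nuclei, at 12.1 and 4.66 CPM, a log2 ratio of -1.37 (-2.02 to -0.70), which was under 2-fold with fixed limits on genes per nucleus (-0.83) and without the top 10% of nuclei by UMIs (-0.98). In immune nuclei the ratio was -0.94 (-1.32 to -0.54). Its ligand Cx3cl1 was rare, with 77 UMIs among all WT nuclei and 102 among all KO nuclei.

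**Figure D2:**
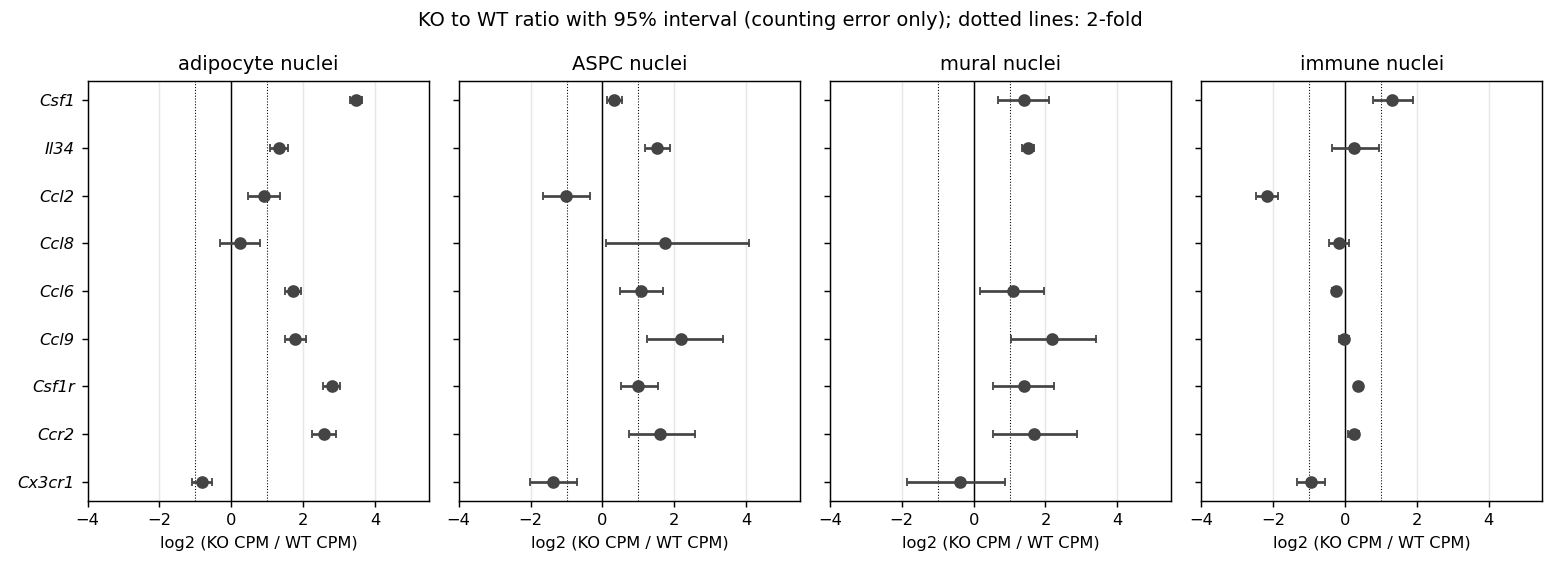
Log2 ratio of KO to WT level for each gene in adipocyte, ASPC, mural and immune nuclei, with bars for the 95% interval from counting error and dotted lines at 2-fold. Ratios are shown for genes with at least 20 UMIs in the class, 9 genes each and 7 in mural nuclei. Csf1 in adipocyte nuclei is highest at 3.47, and Ccl2 in immune nuclei is lowest at -2.16.

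Counted over the 9 genes, adipocyte nuclei had 6 genes at least 2-fold higher in KO and 0 at least 2-fold lower, where 26% of all 17714 genes with at least 20 UMIs in the class were 2-fold higher and 16.6% lower. The 6 were Csf1, Il34, Csf1r, Ccr2, Ccl6 and Ccl9, of which Csf1 alone had a thinned share of KO nuclei whose interval lay above that of KO endothelial nuclei (2.59%, 1.74 to 3.69). The median log2 ratio of the 9 genes was 1.71 beside 0.18 over all genes of the class. With cluster-based classes in place of marker sums, Ccl6 and Ccl9 were under 2-fold at 0.60 and 0.71, Ccl2 was over it at 1.18, and Ccl8 was lower at -1.33.

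ASPC nuclei had 5 genes at least 2-fold higher and 2 lower, where 8.44% and 16.1% of 14458 genes were, and Csf1r lay just under the limit at 1.00. With cluster-based classes the higher genes were 2, with Ccl8 at 0.15, Ccl6 at -0.0056, Ccr2 at 0.82 and Csf1r at -0.66, and the lower gene was 1, with Ccl2 at -0.26. Macrophage markers summed to 229 CPM in WT and 552 CPM in KO ASPC nuclei. Mural nuclei had 6 of 7 measurable genes higher and 0 lower, where 7.68% and 17.8% of 10886 genes were. Of those 6, Csf1 (0.91) and Ccl6 (0.61) were under 2-fold as a mean over nuclei, Csf1r (0.39) with a stricter call and Ccr2 (0.57) with cluster-based classes. Macrophage markers summed to 282 CPM in WT and 549 CPM in KO mural nuclei, and their part was not tested. Endothelial nuclei had 4 higher and 0 lower, where 6.42% and 18.9% of 14248 genes were. Those 4 endothelial genes were Csf1r, Ccr2, Ccl6 and Ccl9, the same 4 whose part of macrophage RNA was not tested, and Adgre1 was 76.8 CPM in these KO nuclei.

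Immune nuclei had 1 gene at least 2-fold higher, Csf1, and 1 lower, Ccl2, where 7.92% and 18.4% of 15236 genes were, and their median log2 ratio was -0.02 beside -0.06 over all genes. The Csf1 value there, 31 UMIs (7.00 CPM) in WT and 348 UMIs (17.5 CPM) in KO, was lower than in any other main class of KO. Resident macrophages likewise had Csf1 higher and Ccl2 lower, where 6.76% and 13.5% of 12360 genes were. Csf1 there rests on 8 UMIs in WT and 88 in KO, a log2 ratio of 1.48 (0.44 to 2.74). It was under 2-fold with a stricter call (0.85) and without the top 10% of nuclei by UMIs (0.65). Lipid-associated macrophages had 0 higher and 3 lower (Ccl2, Ccl8 and Cx3cr1) of 8 measurable genes, where 9.23% and 19% of 10738 genes were, and rest on 30 WT nuclei.

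Summed over all nuclei, as bulk tissue would show them, 7 of the 9 genes were at least 2-fold higher and 0 lower in KO, where 23.5% and 19% of 20225 genes were. In such a sum, more nuclei of a class and more RNA per nucleus cannot be told apart, so the sums were rebuilt with the class levels of either library and the class shares of the other. A class share here is the share of all UMIs, so it holds the number of nuclei and their depth together. With WT levels and KO class shares, the log2 ratio was 1.57 for Ccl6, 1.53 for Ccl9 and 1.22 for Ccl8, beside 1.67, 1.91 and 1.28 as measured. For Csf1 it was 0.53 beside 2.31 as measured, and for Il34 -0.25 beside 1.13.

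With KO levels and WT class shares, Csf1 gave 2.51 and Il34 1.45, while Ccl6 gave 0.92, Ccl8 0.52 and Ccl9 1.18. The measured value was thus nearer to that from class shares alone for Ccl6, Ccl8 and Ccl9, and nearer to that from levels alone for Csf1 and Il34. For Ccl2 the class shares alone gave 1.479 and the levels alone -0.34, beside 0.00 as measured. Class shares alone and levels alone gave close values for Csf1r, 1.53 and 1.65 (2.36 as measured), and for Ccr2, 1.43 and 1.53 (2.11 as measured). Within immune nuclei the log2 ratio was 0.38 for Csf1r and 0.25 for Ccr2. The values from levels alone also hold adipocyte and unassigned nuclei, where the part of macrophage RNA was not tested. Cx3cr1 was nearer to the value from levels alone, with 0.12 and -0.66 beside -0.71.

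**Figure D3:**
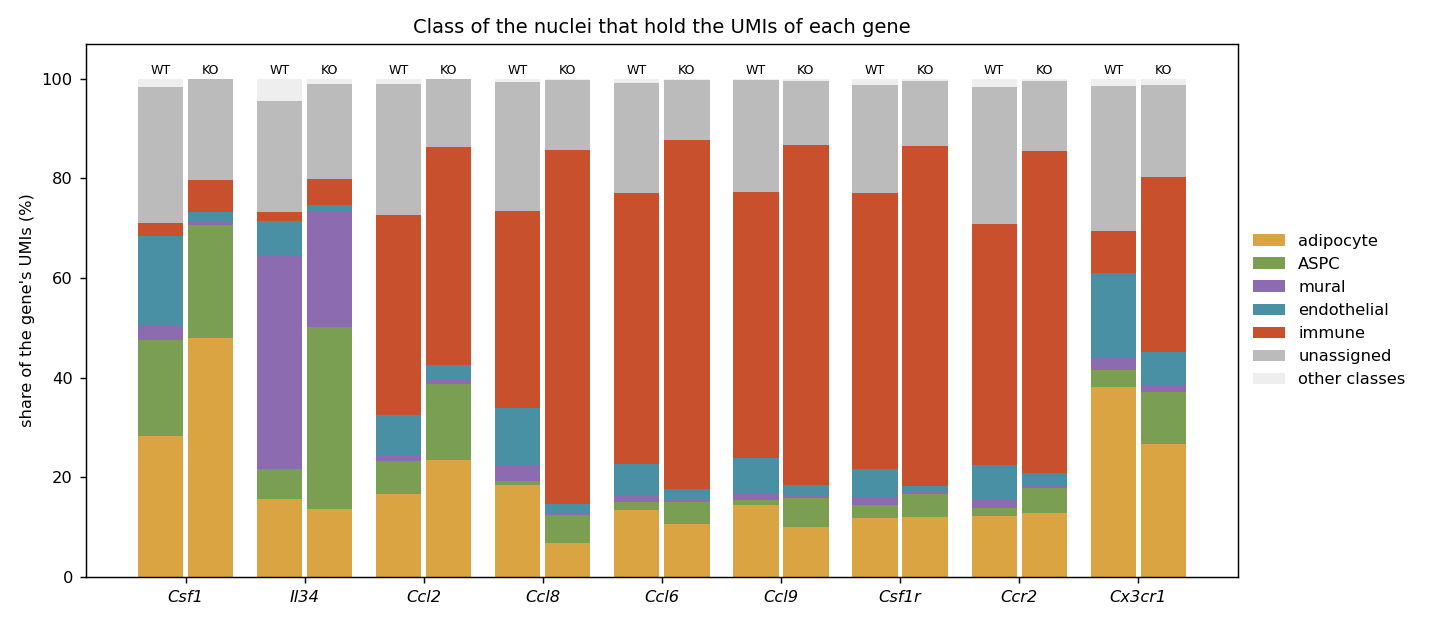
Share of each gene's UMIs (%) that lay in nuclei of each class, with a WT and a KO bar for each of the 9 genes. In KO, adipocyte nuclei held 48.1% of the Csf1 UMIs, and immune nuclei held 64.8% to 71.0% of those of Ccl8, Ccl6, Ccl9, Csf1r and Ccr2.

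The share of RNA by source shows the same split between senders and receivers. Adipocyte nuclei held 28.4% of Csf1 UMIs in WT and 48.1% in KO, while their share of all UMIs was 46.0% and 34.8%. ASPC nuclei held 6.0% of Il34 UMIs in WT and 36.6% in KO, with 3.44% and 16.1% of all UMIs. Mural nuclei held 43.0% and 23.1% of Il34 UMIs, with 2.96% and 1.22% of all UMIs. The lower mural share in KO thus went with a smaller class, while the Il34 level of mural nuclei was higher in KO. Immune nuclei held 55.3% and 68.3% of Csf1r UMIs, with 5.58% and 27.1% of all UMIs.

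**Figure D4:**
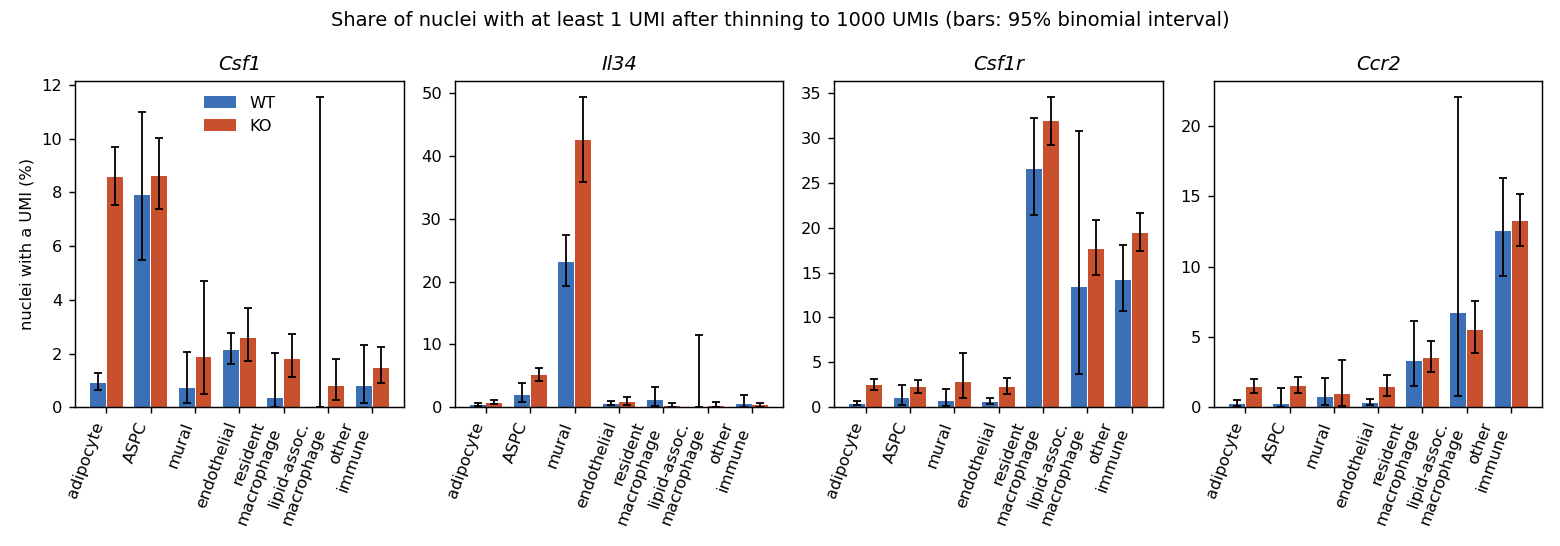
Share of nuclei (%) with at least 1 UMI of Csf1, Il34, Csf1r or Ccr2 after thinning each nucleus to 1000 UMIs, by class, with WT in blue, KO in red and bars for the 95% exact binomial interval. For Csf1 in adipocyte nuclei the share was 0.912% in WT and 8.57% in KO, and for Csf1r the bars of non-immune KO classes lie close together.

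The genes whose levels were most like those of the growth factors were sought over 16 sums, each of a class with at least 50 nuclei in a library, among 15157 genes. The sums share their libraries, and the correlations are a description. Csf1 was most like Ntn1, Npdc1, Col15a1, Phldb1 and Lamc1 (Pearson's r of log2 levels 0.94 to 0.91), and the genes most like Il34 included Vstm4, Sema5a, Synpo2 and Arhgef17 (0.96 to 0.94). Csf1r was most like Ms4a6c, Aoah, Rgs10, Adgre1 and Ms4a7 (0.99 to 0.98), and Ccr2 most like Coro1a, Selplg, Samsn1, Cd226 and Coro2a (0.97). Adgre1 and Coro1a were among the markers used to call immune nuclei, so their pattern over classes was partly set by the calls. Cx3cr1 had weaker partners in Rpl27, Trmt2a, Ppp1ca, Naxe and Uqcc3 (0.87 to 0.85), none of which is a myeloid marker.

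Other genes of the same pathways, 71 in 5 lists, were described in immune nuclei next. Of the 25 other chemokines, 18 had at least 20 UMIs, 1 was at least 2-fold higher in KO and 9 lower, with a median log2 ratio of -1.01 beside -0.06 over all genes. Of all genes in this class, 7.92% were at least 2-fold higher and 18.4% lower. Ccl7, the gene beside Ccl2 whose product also acts on CCR2, stood at 31.4 CPM (139 UMIs) in WT and 4.84 CPM (96 UMIs) in KO, a log2 ratio of -2.70 (-3.09 to -2.31), and Ccl12 at 10.8 and 3.68 CPM. Cxcl2, which draws neutrophils, was the 1 that was higher, at 2.71 CPM in WT and 12.2 CPM in KO. Pf4, a chemokine of macrophages and platelets, stood at 30.7 and 26.4 CPM.

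Cxcl12 (24.6 and 7.91 CPM), an endothelial and stromal chemokine, was lower too, while endothelial markers summed to 870 CPM in WT and 273 CPM in KO immune nuclei and adipocyte markers to 3182 and 1081 CPM. The part of RNA from other classes in these lower values was not tested. Of 12 other chemokine receptors, 9 were measurable, 0 were higher and 4 lower, beside 7.92% and 18.4% of all genes in immune nuclei. Beside the same shares of all genes, 7 of 10 other growth factors were measurable, 0 were higher and 3 lower. Among the lower ones were Vegfa at 391 and 38.8 CPM and Spp1 at 37.7 and 2.72 CPM.

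Other growth factor receptors were the list with the most higher values in immune nuclei, with 4 higher and 1 lower of 12 measurable genes and a median log2 ratio of 0.71. Of all genes in immune nuclei, 7.92% were higher and 18.4% lower. Axl, a receptor for the uptake of dying cells, stood at 23.7 CPM in WT and 116 CPM in KO, a log2 ratio of 2.29 (2.00 to 2.58). Csf2ra, a subunit of the GM-CSF receptor, stood at 96.4 and 209 CPM. Cd74, a receptor of MIF that is better known as the invariant chain bound to MHC class II, stood at 57.6 and 189 CPM. Mertk, the relative of Axl, stood at 653.5 and 635.1 CPM.

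Of 11 myeloid transcription factors, 0 were at least 2-fold higher and 2 lower in immune nuclei, with a median log2 ratio of 0.31. Over all genes of the class 7.92% were higher and 18.4% lower, so the count of lower factors was near that share. Spi1, which encodes PU.1, stood at 145 CPM in WT and 275 CPM in KO, a log2 ratio of 0.93 (0.81 to 1.05), and Maf at 619.6 and 550.3 CPM. Those lower were Cebpb, at 149 and 40.0 CPM, and Nr4a1, an immediate early gene, at 96.4 and 18.2 CPM. Nr4a1 was lower in KO adipocyte nuclei as well, at 229 and 30.9 CPM.

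In adipocyte nuclei, 8 of 13 other growth factor receptors were at least 2-fold higher in KO and 1 lower, with a median log2 ratio of 2.29, and Spi1, which adipocytes are not known for, moved with them at 3.89 and 34.8 CPM. Of all genes in adipocyte nuclei, 26% were at least 2-fold higher and 16.6% lower. Other chemokines were split there, with 5 higher and 7 lower of 19 measurable genes and a median of 0.15 beside 0.18 over all genes. Ackr3 and Ackr4, decoy receptors that take up chemokines, were lower, Ackr4 at 231 CPM in WT and 10.2 CPM in KO and Ackr3 at 194 and 28.7 CPM. Among growth factors, Gas6, a ligand of AXL and MERTK, stood at 8.91 and 24.7 CPM, and Tgfb1 at 6.66 and 28.8 CPM.

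In ASPC nuclei, other chemokines had 2 higher and 4 lower of 13 measurable genes, with a median log2 ratio of -0.34 beside -0.04. Of all genes in ASPC nuclei, 8.44% were at least 2-fold higher and 16.1% lower. Cxcl1, which draws neutrophils, stood at 23.0 CPM in WT and 4.15 CPM in KO, and Cxcl13, which draws B cells, at 23.0 and 3.47 CPM. Ccl11, eotaxin, stood at 32.2 and 29.7 CPM and Cxcl12 at 29.98 and 18.8 CPM. Csf1 and Il34 in the same nuclei were both higher in KO, Csf1 by less than 2-fold.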

How the data were processed

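Nuclei of BAT from 1 WT and 1 KO library were measured by droplet snRNA-seq. The authors deposited unnormalized UMI counts for each gene and barcode, aligned to GRCm38 and counted with Cell Ranger (version 5.0.0 per the file headers; the methods name an earlier version), and the use of intronic reads is not given in the sources used here. Barcodes passed with 200 or more genes, a share of mitochondrial UMIs up to 10%, and log UMI and log gene numbers no further than 3 scaled median absolute deviations from the median of their library. A nucleus took a class from the summed markers of that class, per 10000 UMIs, less the library median and scaled to the 100 highest nuclei, if it had 3 UMIs of 2 markers, a level of at least 0.1 and 1.5 times that of the next class. This rule was set after the data had been seen. Nuclei near a limit of the rule (within 20%) were 12.3% in WT and 9.35% in KO. No doublet caller was run, and nuclei in which no class led by that margin were left unassigned.

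UMIs were summed per class and library and scaled to CPM. Intervals are exact Poisson for levels, exact binomial for shares and exact conditional binomial for ratios. A count of 0 was set to 3 counts in a ratio, and ratios were used with at least 20 UMIs over both libraries. No test or p-value was computed. The 9 genes, the marker lists and the 5 pathway lists were chosen with earlier results of these data known. Named genes are the 9 genes, list genes, markers, and the 5 most correlated genes, by log2(CPM + 1), among those with at least 200 UMIs. Some genes under this rule are not reported here. Alternatives were other filters, a stricter call, 24 Leiden clusters (2000 variable genes, 30 components, 15 neighbours, resolution 0.5) in place of marker sums, other scalings, subtraction of the endothelial level, and removal of the deepest nuclei. Scripts were tested on simulated data and used Python 3.11.15, numpy 2.4.6, scipy 1.17.1, pandas 2.3.3, scanpy 1.11.5, igraph 0.11.9, scikit-learn 1.9.0 and matplotlib 3.10.9.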

Additional observations from a re-analysis of the deposited data

Results flagged for a closer look

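Unassigned nuclei, which entered the rebuilt sums but were not described as a class above, held signal of several genes in KO above the level of the unassigned WT nuclei. The sets differed in make-up, led by cluster 5 in WT (44.8%, median 1774 UMIs) and cluster 8 in KO (25.1%, median 4227 UMIs). Immune markers summed to 184 CPM in the WT and 1355 CPM in the KO set. The part of make-up in the values below was not tested. In KO, Csf1 stood there at 98.0 CPM, Il34 at 43.8 CPM, Ccl6 at 57.4 CPM, Ccl9 at 35.5 CPM, Csf1r at 79.6 CPM and Ccr2 at 38.3 CPM. The WT levels were 14.5, 12.7, 17.9, 8.94, 14.0 and 9.52 CPM in the same order. Ccl8 stood at 4.004 CPM (3.22 to 4.92) in WT and 9.67 CPM (7.94 to 11.7) in KO. Adgre1 in these nuclei was 38.8 CPM in WT and 298 CPM in KO.

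Ccl8 took opposite signs in a pair of classes, with a log2 ratio of 1.73 in ASPC nuclei and -1.45 in immune nuclei with no finer call. The difference between the classes was not tested. The ASPC value rests on 3 UMIs in WT and 43 UMIs in KO, and after thinning 0.501% of KO ASPC nuclei had a Ccl8 UMI beside 0.624% of KO endothelial nuclei.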

How the results depend on the processing

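Of 569 ratios recomputed under alternatives, 466 moved by less than their counting interval, and the others moved by more or turned. The settings differed in this, from 61 of 61 ratios with mitochondrial genes left out of the total to 39 of 61 with cluster-based classes. After subtracting the endothelial level, 25 ratios could be formed and 9 moved by less than the interval. Among the ratios past 2-fold, 2 values changed sign: Ccl2 in ASPC nuclei (0.29 without the top 10% of nuclei by UMIs) and Ccl6 in ASPC nuclei (-0.0056 with cluster-based classes). Of 314 values for the 34 ratios past 2-fold, 281 stayed past it. Ratios under 2-fold turned as well, among them Csf1r in ASPC nuclei (-0.66 with cluster-based classes and -1.90 after subtracting the endothelial level), Ccl8 in adipocyte nuclei (-1.33) and Ccl6 in immune nuclei (0.10), both with cluster-based classes. For Csf1 in adipocyte nuclei the log2 ratio was 3.16 with no filter, 4.21 with cluster-based classes, 3.18 as a mean over nuclei and 3.29 centred on the median ratio. For Il34 it was 2.06 in ASPC and 2.66 in mural nuclei with cluster-based classes, 1.87 in ASPC nuclei after subtracting the endothelial level, and in mural nuclei 1.24 with fixed gene limits, 1.32 with a stricter call and 1.31 as a mean over nuclei. Ccl2 in immune nuclei gave -1.68 as a mean over nuclei and -2.79 after the subtraction, and Csf1r 0.70 with cluster-based classes and 0.24 without the deepest nuclei. In adipocyte nuclei the 6 genes 2-fold higher became 3 without mixed clusters and 0 after the subtraction, since no ratio could be formed where WT lay under the endothelial level. Genes 2-fold lower there became 1 with cluster-based classes and 1 without mixed clusters, in each case Ccl8. In immune nuclei the 1 gene higher became 0 as a mean over nuclei, after the subtraction, without the deepest nuclei and without mixed clusters. The 1 gene lower became 2 with fixed gene limits, with a stricter call and without the deepest nuclei. The causes were not tested. Depth limits Csf1, Ccl2 and Ccl8 in WT lipid-associated macrophages, monocytes and dendritic nuclei, where 0 to 13 UMIs were counted. No paired analysis was possible because each genotype has 1 library, and for the same reason no replicate could be left out.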

Other observations

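In mural nuclei, where Il34 was highest, the other growth factor receptors had 4 genes at least 2-fold higher and 1 lower of 8 measurable genes, with a median log2 ratio of 0.82 beside -0.04 over all genes. Of all genes in mural nuclei, 7.68% were higher and 17.8% lower. In endothelial nuclei these receptors had 6 higher and 0 lower of 12, with a median of 1.08, beside 6.42% and 18.9% of all genes. Macrophage markers summed to 282 CPM in WT and 549 CPM in KO mural nuclei, and to 423 and 713 CPM in endothelial nuclei. The part of macrophage RNA in the receptor values was not tested. Endothelial Cxcl12, the ligand of CXCR4, stood at 138.6 CPM in WT and 184.9 CPM in KO, and Vegfa in the same nuclei at 428.8 and 54.6 CPM.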
